A study of Mus musculus with 12 samples.

Results

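The genes described here are 46 genes of DNA replication and S phase, taken by symbol from the tables of 3 cell types, out of 18539 genes listed in at least 1 of those tables. All 46 were listed in each cell type. The members are a list by function, and no measured value enters the rule, but the list was drawn up with earlier results of these data known. The study sequenced poly(A) RNA from mouse cells in 12 libraries, 1 for each of 4 treatments in primary hepatocytes, primary adipocytes and C2C12 cells, an established mouse myoblast line that had been differentiated into myotubes. The 4 treatments were vehicle (DMSO) for 36 h; vehicle for 24 h and then olanzapine, an antipsychotic drug, at 1 μM for 12 h; calcifediol at 10 μM for 24 h and then calcifediol with olanzapine for 12 h; and calcitriol at 0.1 μM for 24 h and then calcitriol with olanzapine for 12 h. Hepatocytes came from livers of young adult male C57BL/6J mice (written C57BL6/J in the labels), and adipocytes were differentiated in culture from subcutaneous fat of neonatal pups of the same strain; the sources used here do not say how many animals gave a culture. No library carried a metabolite without olanzapine, and no condition had a second library. Calcifediol (25-hydroxyvitamin D3) is the circulating form of vitamin D, and calcitriol is the hormone that binds the vitamin D receptor. Their doses differed, so their values stand side by side below and were not compared with each other.

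Replication is prepared when the origin recognition complex, with Cdc6 and Cdt1, loads the ring of Mcm proteins onto DNA, and starts when Cdc45 and the GINS complex turn that ring into a moving helicase. Polymerase alpha with its primase lays down primers, polymerases delta and epsilon extend them on the sliding clamp Pcna, and Fen1 and Lig1 join the finished fragments. Many of these genes are transcribed shortly before and during S phase by E2F factors, which the retinoblastoma family of pocket proteins restrains. Myoblasts leave the cell cycle when they fuse into myotubes, and hepatocytes and adipocytes in culture divide little, so the level of these genes is widely read as a sign of cycling cells.

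Total counts ranged from 18325297 to 19348338 per library in hepatocytes, from 15641434 to 17225873 in adipocytes and from 17441982 to 18401972 in C2C12 cells. Levels are given as CPM, counts scaled to the total of their library, and ratios as log2 ratios of CPM after adding 0.5 to each count, with the exact Clopper-Pearson 95% interval of the ratio. These intervals cover counting error only. A gene was called in a comparison of a pair of libraries at a fold change of at least 2 and a false discovery rate (FDR) of at most 0.05 in the Audic-Claverie test on reads, if its TPM reached 1 in 1 or more of the 4 libraries. Such a p-value measures read sampling in the libraries set against each other and says nothing of the spread between cultures. The defining markers of each labelled cell type were present: 6 of 6 hepatocyte markers summed to 73879 to 78103 CPM in hepatocytes, 7 of 7 adipocyte markers to 13579 to 15444 CPM in adipocytes, and 9 of 9 muscle markers to 18668 to 19788 CPM in C2C12 cells. Macrophage markers summed to 306 to 437 CPM in hepatocytes, and fibroblast and preadipocyte markers to 8894 to 10819 CPM in adipocytes; their part in the results was not tested. In C2C12 cells Cyp24a1, the catabolic enzyme that the vitamin D receptor induces, had 1 count with vehicle, 0 with olanzapine, 6193 with calcifediol and 9096 with calcitriol. The same gene had 0, 0, 4 and 4 counts in hepatocytes and 2, 0, 661 and 579 in adipocytes.

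In C2C12 cells the 46 genes summed to 2105 CPM with vehicle, 2077 CPM with olanzapine, 996 CPM with calcifediol and olanzapine, and 1289 CPM with calcitriol and olanzapine. Both metabolite libraries therefore lay below both others. In hepatocytes the sum stayed between 626 and 681 CPM, and in adipocytes between 505 and 559 CPM. In bulk RNA, fewer cells in S phase and less RNA per cell cannot be told apart.

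**Figure D1:**
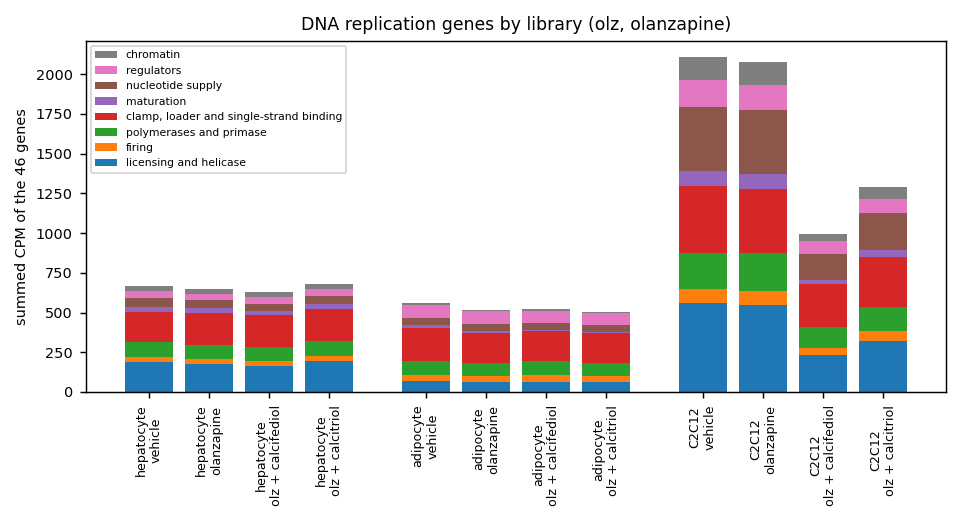
Summed CPM of the 46 genes in each of the 12 libraries, with the bar divided by the role of the genes; each bar is 1 library, so there are no error bars. The C2C12 bars reach 2105 and 2077 CPM without a metabolite and 996 and 1289 CPM with calcifediol and with calcitriol, and the hepatocyte and adipocyte bars stay between 505 and 681 CPM.

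With calcifediol added to olanzapine in C2C12 cells, 30 of the 46 genes were called lower and 0 higher. Across all 12124 genes tested, 6.29% were called lower and 5.28% higher. All 46 ratios were below 0 with their intervals, and their median was -1.18 (range -1.96 to -0.24), beside 0.035 over all genes tested. With calcitriol added to olanzapine, 9 of 46 were called lower and 0 higher, where 3.93% of all genes were called lower and 4.43% higher. The median was -0.77 (range -1.43 to 0.052), beside 0.020 over all genes, and 42 of 46 intervals lay below 0. The metabolite comparisons share the olanzapine library. With olanzapine against vehicle, 0 of 46 genes were called, where 0.313% of all genes were, and the ratios ranged from -0.33 to 0.19 around a median of -0.046. In 45 of 46 genes, all but Gins4, both metabolite libraries lay below both libraries without a metabolite, an order that 29.9% of all genes tested had. The opposite order held for 0 of the 46 and for 34.9% of all genes.

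**Figure D2:**
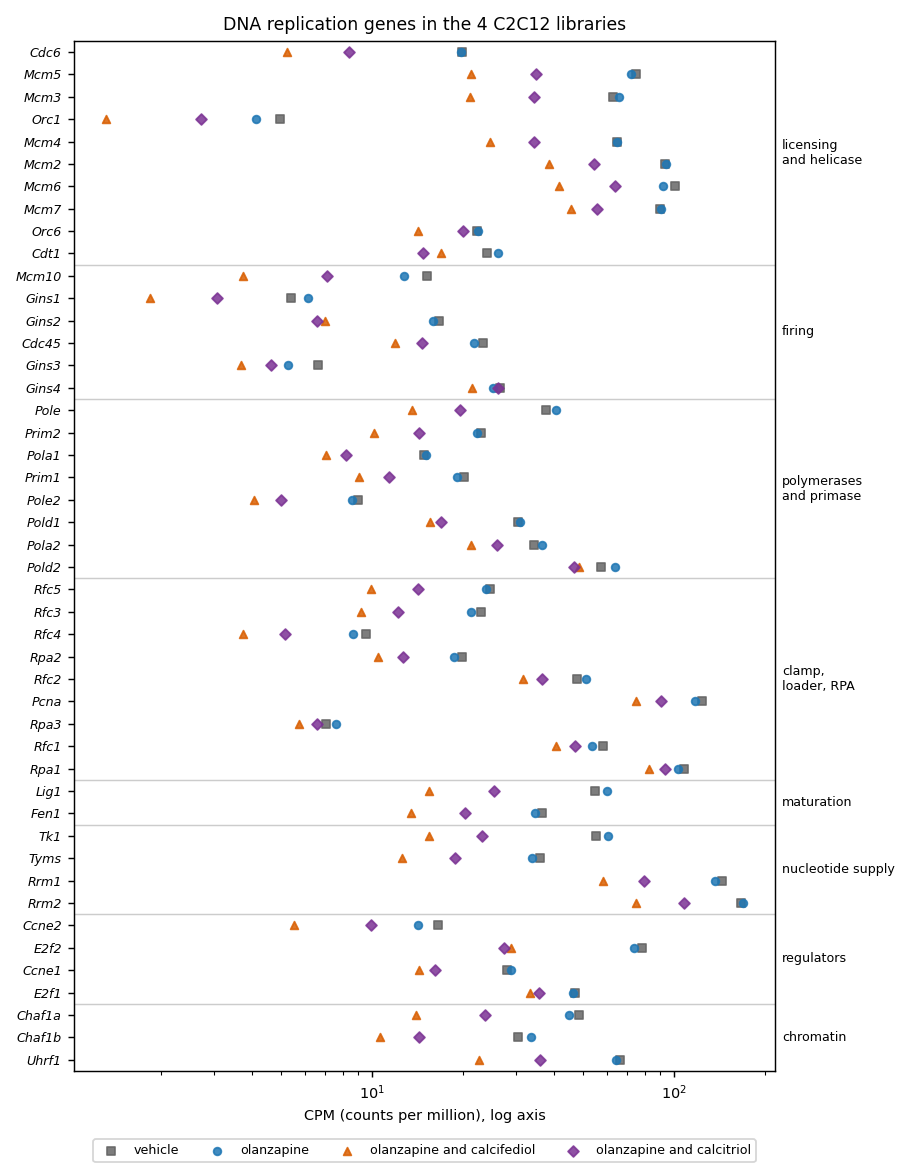
CPM on a log axis of each of the 46 genes in the 4 C2C12 libraries, grouped by role; each marker is 1 library. Vehicle and olanzapine markers lie close together, and both metabolite markers lie to their left in 45 of 46 genes, with Gins4 as the exception.

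Because the genes moved together, the promoters of some members are shown, from 250 bases before to 50 bases after an annotated start (RefSeq, GRCm38.p6). They are the 4 members with the lowest and the 2 with the highest ratio to olanzapine with calcifediol among those with 1 promoter in the table, a choice made after the values were seen. All are written 5′ to 3′ on the strand of the gene. Capitals mark matches to the E2F motif, searched on both strands as TTTCCCGC, TTTCGCGC, TTTGCCGC and TTTGGCGC. The promoters of Tk1 (chr11:117825965-117826264, minus strand) and Mcm10 (chr2:5012742-5013041, minus strand) hold none. That of Cdc6 (chr11:98907901-98908200, plus strand) holds 1 match, which starts 138 bases before the start. That of Mcm5 (chr8:75109259-75109558, plus strand) holds 2 overlapping matches, which start 153 and 149 bases before it. The promoters of Rfc1 (chr5:65335590-65335889, minus strand) and Rpa1 (chr11:75348334-75348633, minus strand), shown for their ratios closest to 0, hold none. The windows of Cdc6 and Rfc1 lie wholly inside the annotated genes (chr11:98907709-98923942 and chr5:65261852-65338617). Sequence before the outer end of these genes was therefore not searched.
Tk1: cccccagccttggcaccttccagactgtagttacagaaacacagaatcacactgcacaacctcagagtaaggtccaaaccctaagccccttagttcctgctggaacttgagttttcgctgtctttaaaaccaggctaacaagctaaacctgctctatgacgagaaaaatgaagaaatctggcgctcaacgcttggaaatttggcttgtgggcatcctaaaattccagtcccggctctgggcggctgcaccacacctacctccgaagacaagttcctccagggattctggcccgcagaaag
Cdc6: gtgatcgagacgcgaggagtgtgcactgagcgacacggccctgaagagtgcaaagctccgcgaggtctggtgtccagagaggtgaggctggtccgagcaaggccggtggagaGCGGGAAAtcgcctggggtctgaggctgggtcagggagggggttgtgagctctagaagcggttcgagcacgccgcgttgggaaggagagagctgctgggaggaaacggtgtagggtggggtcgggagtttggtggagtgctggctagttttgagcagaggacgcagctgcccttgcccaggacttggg
Mcm10: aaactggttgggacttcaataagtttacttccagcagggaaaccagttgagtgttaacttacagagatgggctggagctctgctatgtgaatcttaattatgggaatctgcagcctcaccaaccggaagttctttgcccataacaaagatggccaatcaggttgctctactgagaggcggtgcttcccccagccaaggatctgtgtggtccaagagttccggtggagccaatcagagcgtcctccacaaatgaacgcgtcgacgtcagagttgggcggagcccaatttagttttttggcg
Mcm5: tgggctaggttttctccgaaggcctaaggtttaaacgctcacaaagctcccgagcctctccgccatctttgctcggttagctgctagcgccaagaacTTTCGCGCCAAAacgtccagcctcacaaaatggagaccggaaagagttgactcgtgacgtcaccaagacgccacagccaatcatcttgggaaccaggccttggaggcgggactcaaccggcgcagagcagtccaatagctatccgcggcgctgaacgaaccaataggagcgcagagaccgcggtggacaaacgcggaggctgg
Rfc1: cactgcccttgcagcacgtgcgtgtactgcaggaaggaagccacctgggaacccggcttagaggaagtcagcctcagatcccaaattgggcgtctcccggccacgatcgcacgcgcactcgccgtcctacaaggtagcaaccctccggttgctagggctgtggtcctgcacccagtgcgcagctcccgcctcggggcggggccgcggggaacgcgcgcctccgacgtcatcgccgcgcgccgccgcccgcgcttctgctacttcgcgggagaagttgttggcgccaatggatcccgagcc
Rpa1: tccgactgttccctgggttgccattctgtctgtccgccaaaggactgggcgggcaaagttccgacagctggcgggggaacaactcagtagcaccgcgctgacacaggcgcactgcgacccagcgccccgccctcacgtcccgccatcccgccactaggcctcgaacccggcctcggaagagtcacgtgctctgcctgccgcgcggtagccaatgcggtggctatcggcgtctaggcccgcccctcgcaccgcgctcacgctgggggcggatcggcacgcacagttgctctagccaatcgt

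A promoter was found for 38 of the 46 genes, and 15 of these 38 (39.5%) had at least 1 match. A match was present in 2.26% of all 32851 promoters of that length, for 2.61% of the 27025 genes they belong to, and for 4.76% of the 9681 of these genes that were tested in C2C12 cells. The 15 members with a match had a median log2 ratio of -1.21 with calcifediol (range -1.94 to -0.52), and the 23 without had -1.07 (range -1.96 to -0.31). With calcitriol these medians were -0.83 and -0.74. The ranges overlapped almost entirely, and members with a match were among the lowest ratios (Lig1, Cdc6, Mcm5) and among the higher ones (Gins3, Cdt1). A match is a description of the letters and not a binding site. The bodies of 14 of the 46 genes overlap another listed gene, among them Tk1 (Afmid), Lig1 (Zswim9) and Rpa1 (Smyd4), and their counts are less certain because the sources used here do not say whether strand was used.

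The licensing and helicase genes had medians of -1.34 with calcifediol and -0.81 with calcitriol in C2C12 cells, and 7 and 2 of 10 were called lower. Over all genes tested, 6.29% and 3.93% were called lower, the shares to set beside these counts and those of the roles below. Cdc6, which loads the helicase onto origins, was at 19.8 CPM with vehicle, 19.7 with olanzapine, 5.22 with calcifediol and 8.39 with calcitriol. This was 3.76-fold lower than olanzapine with calcifediol (log2 ratio -1.91, interval -2.27 to -1.58) and 2.34-fold lower with calcitriol (-1.23, -1.52 to -0.95), and both were called. Mcm5, a subunit of the ring, was at 74.9, 72.1, 21.2 and 35.0 CPM in the same order of libraries. Its ratios were -1.76 (-1.94 to -1.60) and -1.04 (-1.18 to -0.91), both called. Mcm3 was at 62.5, 65.5, 21.1 and 34.4 CPM, and was called with calcifediol (-1.63) and not with calcitriol (-0.93). Cdc6, Mcm5 and Mcm3 were named for the lowest mean ratios of the role. All 6 subunits of the ring, Mcm2 to Mcm7, had both metabolite libraries below the others, as had 29.9% of all genes. Their ratios ran from -1.76 to -0.99 with calcifediol and from -1.04 to -0.53 with calcitriol. Orc6, a subunit of the origin recognition complex, had the ratios closest to 0 in the role on average, at 22.3, 22.3, 14.2 and 19.95 CPM. Orc1, another subunit, was called with calcifediol from 91, 74, 23 and 49 counts (-1.63 and -0.60). Cdt1, the partner of Cdc6, was not called (-0.63 and -0.83). Orc6 itself was not called in either comparison, and its calcitriol ratio of -0.16 turned to 0.0093 when libraries were scaled to Rplp0, a ribosomal protein gene.

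The firing factors, which turn the loaded ring into an active helicase, had medians of -1.03 and -0.70, and 3 and 2 of 6 were called lower. Gins1 was at 5.38, 6.16, 1.83 and 3.06 CPM and was called in both comparisons (-1.73, -2.36 to -1.17; and -1.004, -1.50 to -0.53). Gins2 was at 16.7, 15.9, 6.99 and 6.56 CPM and was also called in both (-1.18 and -1.27). Mcm10, which binds the ring at activation, was at 15.2, 12.8, 3.73 and 7.11 CPM and was called with calcifediol (-1.77) and not with calcitriol (-0.84). In each of these, named for the lowest mean ratios of the role, both metabolite libraries were below the other pair, as in 29.9% of all genes. Cdc45, which joins the ring and GINS in the helicase, had ratios of -0.87 and -0.57 and was not called. The GINS complex holds Gins1 to Gins4 in equal parts, but of its 4 genes only Gins1 and Gins2 were called. Gins3 was at 6.63, 5.26, 3.67 and 4.61 CPM and Gins4 at 26.4, 25.2, 21.4 and 26.1 CPM, neither called, and the Gins4 value with calcitriol lay between those of the libraries without a metabolite.

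The polymerase and primase genes had medians of -1.07 and -0.76, and 5 and 1 of 8 were called lower. Pole, the catalytic subunit of polymerase epsilon, was at 37.6, 40.5, 13.6 and 19.6 CPM and was called in both comparisons (-1.57, -1.79 to -1.36; and -1.05, -1.24 to -0.87). Pola1, the catalytic subunit of polymerase alpha, was at 14.9, 15.1, 7.05 and 8.22 CPM and was called with calcifediol (-1.10). Pold1, the catalytic subunit of polymerase delta, was at 30.4, 30.8, 15.5 and 16.9 CPM, just short of the fold threshold with calcifediol (1.98-fold lower). Pold1 was called in neither comparison. These catalytic subunits of the 3 replicative polymerases, named for the lowest mean ratios of the role, had both metabolite libraries below the others. That order was found in 29.9% of all genes. Pold2, the small regulatory partner of Pold1, was the least changed of the role, at 57.1, 63.6, 48.4 and 46.7 CPM (-0.39 and -0.45, not called). Of the remaining genes, Prim1 and Prim2 of the primase and Pole2 were called with calcifediol (-1.13 to -1.07), and Pola2 was not (-0.78).

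The clamp, clamp loader and single-strand binding genes had the ratios closest to 0, with medians of -0.69 and -0.49, and 3 and 0 of 9 were called lower. The 3 called with calcifediol were small subunits of replication factor C, which loads the clamp. Rfc3 was at 22.9, 21.2, 9.17 and 12.2 CPM (-1.21 and -0.80). Rfc5 was at 24.6, 23.8, 9.92 and 14.2 CPM (-1.26 and -0.74), and Rfc4 at 9.51, 8.62, 3.73 and 5.17 CPM (-1.20 and -0.73). Each of these, named for the lowest mean ratios of the role, had both metabolite libraries below the others, as had 29.9% of all genes. Rpa1, the large subunit of the protein that coats single-stranded DNA, was at 108, 103, 82.7 and 93.2 CPM (-0.31, -0.41 to -0.21; and -0.14, -0.24 to -0.04), not called. The clamp itself, Pcna, had the highest TPM, a level per transcript length, of all members in C2C12 cells, at 201, 187, 121 and 149, and was not called (-0.65 and -0.38). The uncalled Rfc1, Rfc2, Rpa2 and Rpa3 had calcifediol ratios from -0.84 to -0.40. The calcitriol ratio of Rpa1 turned to 0.032 when scaled to Rplp0.

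Both maturation genes were called with calcifediol. Lig1, which seals nicks between joined fragments, was at 54.6, 59.7, 15.5 and 25.3 CPM, 3.85-fold lower with calcifediol (-1.94, -2.14 to -1.75) and 2.36-fold lower with calcitriol (-1.24, -1.40 to -1.08). Fen1, the flap nuclease, was at 36.6, 34.5, 13.5 and 20.3 CPM, called with calcifediol (-1.36) and not with calcitriol (-0.77). Of the nucleotide supply genes, all 4 were called with calcifediol and 1 with calcitriol. Tk1, which phosphorylates thymidine, had the lowest calcifediol ratio of all 46, at 55.2, 60.3, 15.5 and 23.1 CPM (3.89-fold lower, -1.96, -2.16 to -1.77; and 2.61-fold lower, -1.39, -1.55 to -1.22). Tyms, which makes thymidylate, was at 35.9, 33.9, 12.6 and 18.8 CPM (-1.43 and -0.85). The subunits of ribonucleotide reductase, which makes deoxynucleotides, were both called with calcifediol and not with calcitriol, with Rrm1 at 144, 136, 58.3 and 79.3 CPM (-1.23 and -0.78) and Rrm2 at 166, 169, 74.6 and 108 CPM (-1.18 and -0.65).

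The 4 regulators were spread from little to much change. E2f2, a transcriptional activator of S phase genes, was at 78.4, 73.6, 28.8 and 27.3 CPM and was called in both comparisons (-1.35, -1.50 to -1.20; and -1.43, -1.58 to -1.28), with the lowest calcitriol ratio of the 46. E2f1, the other activator on the list, was at 47.0, 46.2, 33.4 and 35.7 CPM and was not called (-0.47 and -0.37). The cyclins E activate Cdk2 at the entry to S phase. Ccne1 was at 28.0, 28.8, 14.3 and 16.1 CPM and Ccne2 at 16.5, 14.2, 5.50 and 9.95 CPM, both called with calcifediol (-1.01 and -1.36) and not with calcitriol (-0.83 and -0.51).

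All 3 chromatin genes were called with calcifediol. Chaf1a and Chaf1b are subunits of the factor that deposits histones on new DNA. Chaf1a was at 48.4, 44.7, 13.9 and 23.6 CPM (-1.68 and -0.92), and Chaf1b at 30.4, 33.6, 10.6 and 14.3 CPM (-1.66 and -1.23, the latter also called). Uhrf1, which carries DNA methylation over to the new strand, was at 66.1, 64.2, 22.6 and 36.0 CPM (-1.50 and -0.83). Their summed level was 145 and 143 CPM without a metabolite, 47.2 CPM with calcifediol and 74.0 CPM with calcitriol.

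**Figure D3:**
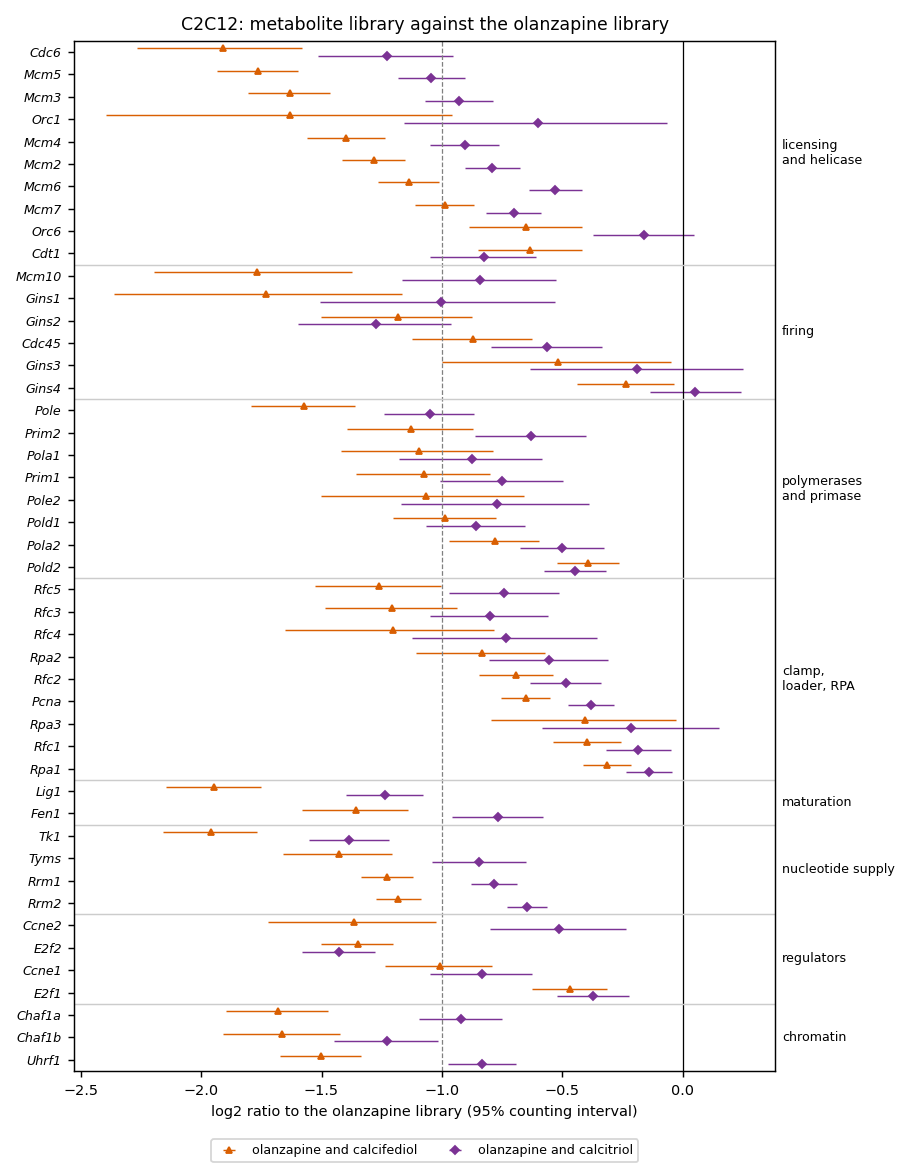
log2 ratio of each of the 46 genes to the C2C12 olanzapine library, with calcifediol and with calcitriol; points are single comparisons of libraries, lines are 95% counting intervals, and the dashed line at -1 is the fold threshold. All 46 calcifediol intervals lie below 0, from Tk1 at -1.96 to Gins4 at -0.24, and 42 of 46 calcitriol intervals do.

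A model over all 12 libraries set the 2 libraries with a metabolite against the 2 without in each cell type, by edgeR's quasi-likelihood test with Benjamini-Hochberg adjustment over 13749 genes. Its residual spread holds the differences between vehicle and olanzapine and between calcifediol and calcitriol, since no condition was repeated. In C2C12 cells 42 of 46 genes were lower and 0 higher, where 11.8% of all genes were lower and 11.2% higher. The median over the 46 was -1.0035 on the log2 scale, beside 0.0060 over all genes. Each SE from this model was derived from the estimate and the F statistic of its test. Tk1 fell by 1.61 (SE 0.17, adjusted p = 7.25e-06), Cdc6 by 1.56 (SE 0.23, adjusted p = 0.000162) and E2f2 by 1.46 (SE 0.10, adjusted p = 8.1e-08). Among the 42, Rpa1 had the smallest fall, by 0.28 (SE 0.10, adjusted p = 0.0482). The 4 genes that did not pass were Orc6 (-0.41, adjusted p = 0.0631), Gins3 (-0.54, adjusted p = 0.236), Rpa3 (-0.28, adjusted p = 0.457) and Gins4 (-0.14, adjusted p = 0.454). Over the 19 fits made, 32 genes were lower in each, and the share of all genes lower in each fit was not taken. The fits share libraries and are not separate checks. Those without a hepatocyte or an adipocyte library kept every C2C12 library.

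In hepatocytes the same test called 0 of 46 genes and 0% of all genes. An unadjusted p under 0.05 was found for 1 of the 46, Tk1, and for 480 of all 13749 genes. The median over the 46 was 0.032. In adipocytes it called 0 of 46, where 0.153% of all genes were called, and the median over the 46 was -0.075. There 1 of 46, Pola1, had an unadjusted p under 0.05, as had 997 of all 13749 genes. DESeq2 and limma also called 0 of 46 in both cell types. In hepatocytes Gins3 and Orc1, and in adipocytes Orc1, Pole, Mcm10 and Cdc6, stayed under a TPM of 1 in all 4 libraries, which left 44 and 42 genes for the read-level test.

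In that test olanzapine against vehicle called 0 of 44 genes in hepatocytes, where 0.356% of all genes were called, and 1 of 42 in adipocytes, where 1.22% were. Calcifediol added to olanzapine called 1 of 44 in hepatocytes (0.566% of all genes) and 0 of 42 in adipocytes (1.52%). Calcitriol added to olanzapine called 0 of 44 in hepatocytes (0.702%) and 1 of 42 in adipocytes (0.974%). These shares rest on single genes at low counts. Tk1 had 50, 54, 28 and 42 counts in hepatocytes (vehicle, olanzapine, calcifediol, calcitriol), and was called lower with calcifediol at a ratio of -1.001 (-1.73 to -0.33), at the threshold itself. Uhrf1 had 60, 31, 50 and 31 counts in adipocytes and was called lower with olanzapine (-1.06, -1.74 to -0.42). Gins3 had 14, 31, 20 and 11 counts in adipocytes and was called lower with calcitriol (-1.36, -2.55 to -0.37). The Gins3 counts with the metabolites stand around that of the vehicle library, and each of these 3 calls was lost under other settings. Medians of the members' ratios in these 6 comparisons lay between -0.13 and 0.075.

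In hepatocytes both metabolite libraries lay below both others for 7 of 46 genes (15.2%, beside 17.8% of all genes tested) and above both for 1 (2.17%, beside 14.4%). In adipocytes they lay below for 11 of 46 (23.9%, beside 24.7%) and above for 3 (6.52%, beside 14.4%). The share below was thus near that of all genes in both cell types, and the share above was smaller than that of all genes; neither difference was tested.

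The test of the difference between cell types, as an interaction in the same edgeR model, called 26 of 46 genes for C2C12 cells against hepatocytes and 21 of 46 against adipocytes, all with the lower effect in C2C12 cells, where 7.72% and 9.26% of all genes were called in either direction. E2f2 differed by -1.54 from hepatocytes (SE 0.16, adjusted p = 3.5e-05) and by -1.42 from adipocytes (SE 0.14, adjusted p = 1.24e-05). Its level was 6.92, 7.80, 7.87 and 7.44 CPM in hepatocytes and 41.7, 42.2, 38.5 and 41.0 CPM in adipocytes, without a change that follows the metabolites. Lig1 differed from hepatocytes by -1.39 (SE 0.24, adjusted p = 0.0026) and Pold1 by -0.97 (SE 0.17, adjusted p = 0.00274). Ccne1 differed from adipocytes by -1.09 (SE 0.17, adjusted p = 0.000929) and Mcm7 by -0.97 (SE 0.19, adjusted p = 0.00469). For Tk1 the difference from hepatocytes, -1.01 (SE 0.33), did not pass (adjusted p = 0.0772). These counts depended on single libraries. Against hepatocytes and against adipocytes, the count was smaller without some libraries and larger without others. Leaving out a library of a compared cell type left 1 library on 1 side. Shares over all genes were not taken for those fits, so it is not known whether the calls of all genes moved likewise.

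**Figure D4:**
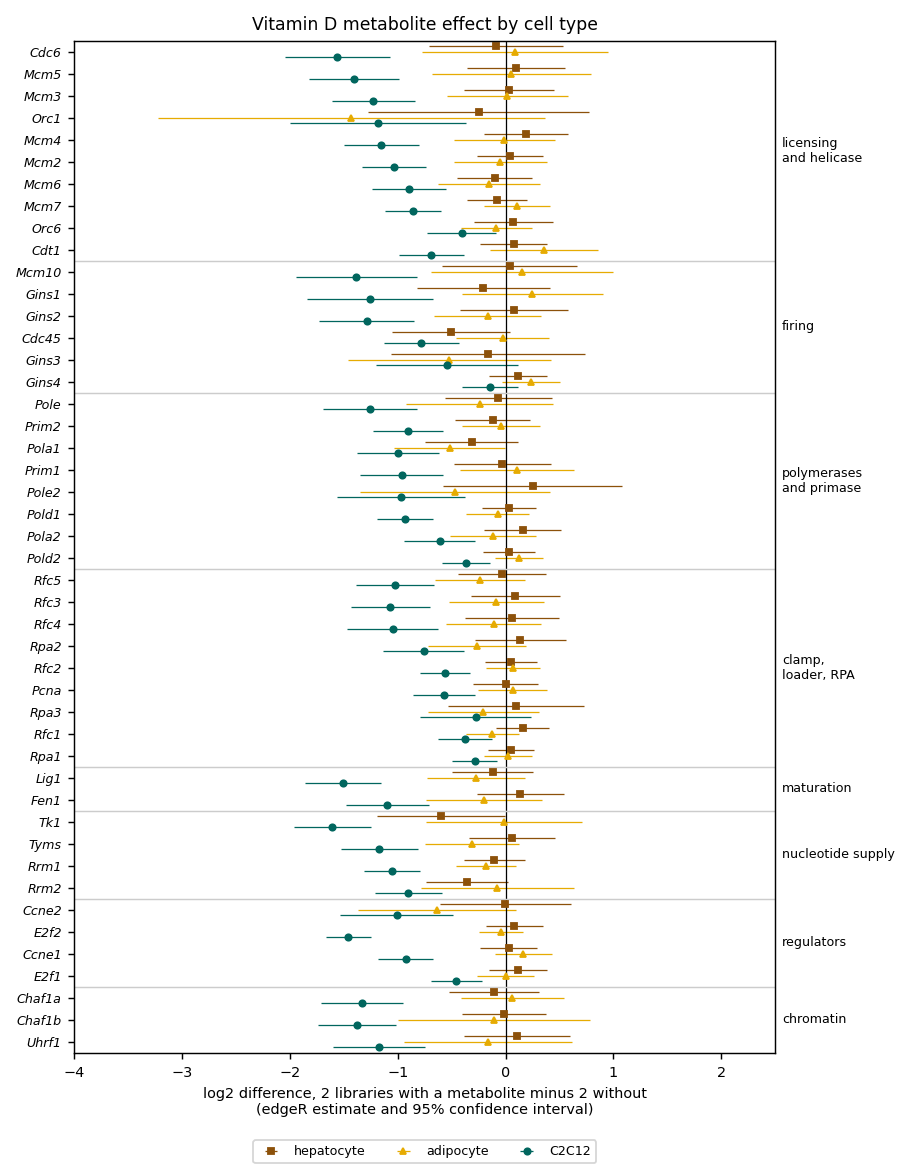
Difference on the log2 scale between the 2 libraries with a metabolite and the 2 without for each of the 46 genes in hepatocytes, adipocytes and C2C12 cells. Points are edgeR estimates. Lines are 95% confidence intervals, made with an SE derived from the F statistic of the test. The C2C12 points lie around a median of -1.0035, and the hepatocyte and adipocyte points around 0.032 and -0.075.

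Other genes of the cell cycle were read from lists in C2C12 cells. Of 44 further replication genes, with medians of -0.89 and -0.44, 0 were called higher in either comparison, beside 5.28% and 4.43% of all genes. With calcifediol 20 were called lower and with calcitriol 9, beside 6.29% and 3.93% of all genes. Among them were Exo1, a nuclease of repair (12.3, 12.4, 3.21 and 4.45 CPM), Asf1b, a histone chaperone (36.5, 41.6, 12.8 and 17.1 CPM), Dscc1 of the alternative clamp loader (4.56, 3.81, 1.204 and 3.17 CPM) and Timeless of the fork protection complex (16.2, 18.6, 6.08 and 11.8 CPM). These 4 were named for the largest calcifediol ratios of the list, so their calls with calcifediol follow in part from that choice. With calcitriol Exo1 and Asf1b were called. Dscc1 (-0.26, interval -0.80 to 0.26) and Timeless (-0.66) were not. The further subunits of the origin recognition complex, Orc2 to Orc5, named after their values were seen, were not called, with calcifediol ratios from -0.18 to 0.16. Their calcitriol ratios ran from -0.06 to 0.27. Orc3 (interval 0.09 to 0.37) and Orc5 (0.0085 to 0.54) were the only genes of the list with calcitriol intervals above 0.

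All 13 mitotic genes were called lower with calcifediol (median -1.72) and 8 of 13 with calcitriol (median -1.01). The shares over all genes were 6.29% and 3.93%. The proliferation marker Mki67 was at 231, 206, 49.0 and 90.7 CPM, and the spindle motor Kif11 at 38.0, 38.5, 9.23 and 18.7 CPM. Aurkb, a kinase of chromosome segregation, was at 38.4, 42.5, 11.4 and 17.2 CPM, and its partner Birc5 at 47.4, 47.9, 13.2 and 21.5 CPM. These 4 were named for the largest calcifediol ratios of the list, so the order of their libraries follows in part from that choice. In each, both metabolite libraries were below both others, an order that 29.9% of all genes tested had.

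Of 14 tested cyclin, CDK and CDK inhibitor genes, 4 were called lower with calcifediol and 3 with calcitriol. The shares over all genes were 6.29% and 3.93%, and the medians of the list were -0.46 and -0.43. Cdkn1c, a CDK inhibitor, was at 11.2, 7.89, 0.860 and 2.89 CPM, and Ccna2, the cyclin of S phase, at 103, 109, 31.4 and 49.0 CPM. Ccnd1, a D cyclin that acts before S phase, was at 139, 124, 49.0 and 46.01 CPM, and Cdc25a, a phosphatase that activates Cdk2, at 21.4, 25.7, 12.8 and 19.7 CPM. The list also held genes with higher levels. In the edgeR model 9 of the 14 were lower and 2 higher, where 11.8% of all genes were lower and 11.2% higher. The 2 higher were Ccnd2, another D cyclin (62.1, 60.8, 108 and 73.9 CPM, 0.54, SE 0.17, adjusted p = 0.0319), and Cdkn1b, a CDK inhibitor (30.3, 32.0, 48.0 and 39.3 CPM, 0.46, SE 0.11, adjusted p = 0.00531), both named after their values were seen. Neither reached the fold threshold in the comparisons of library pairs. Of 11 E2F and pocket protein genes, 3 were called lower with calcifediol and 1 with calcitriol, beside 6.29% and 3.93% of all genes. The medians of the list were -0.087 and -0.14. The repressors E2f7 (36.8, 36.4, 7.28 and 16.1 CPM) and E2f8 (98.6, 98.5, 34.4 and 65.9 CPM) and the pocket protein Rbl1 (26.5, 25.9, 12.6 and 16.2 CPM) made up the 3. Tfdp2, an E2F partner, was at 24.9, 21.7, 29.5 and 29.4 CPM and was not called.

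**Figure D5:**
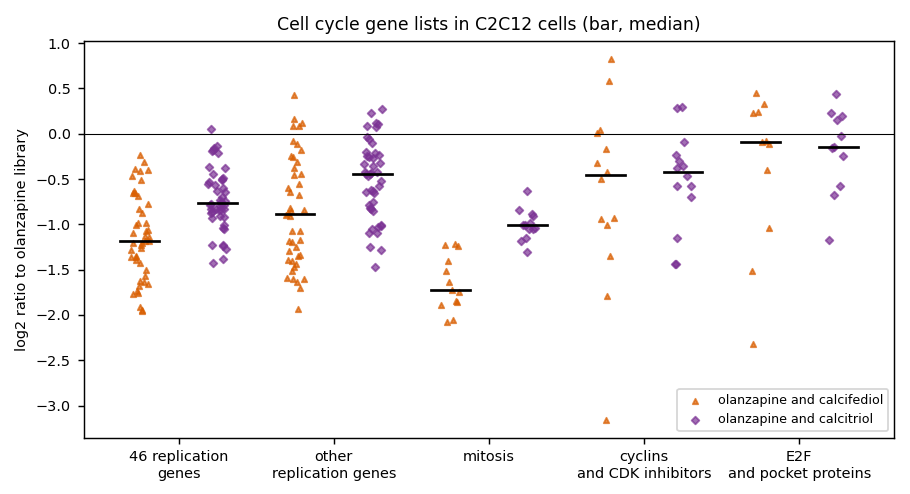
log2 ratio to the C2C12 olanzapine library for the 46 replication genes and for 4 lists of other cell cycle genes, with calcifediol and with calcitriol; points are genes and bars medians. The median is lowest for the mitotic genes (-1.72 and -1.01), then -1.18 and -0.77 for the 46 genes, and near 0 for the E2F and pocket protein genes (-0.087 and -0.14).

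Markers of muscle and of other cells were read in the same 4 C2C12 libraries. The 9 muscle markers summed to 18668 and 18855 CPM without a metabolite, 19446 CPM with calcifediol and 19788 CPM with calcitriol, all 9 listed. Within them Myog, the factor of early differentiation, was at 747, 815, 527 and 508 CPM. The 3 myoblast markers, all counted, summed to 187, 203, 218 and 182 CPM. The 6 fibroblast and preadipocyte markers, all counted, summed to 3650 and 3933 CPM without a metabolite and to 5226 and 5792 CPM with one. Most of this was Col1a1 (3437, 3719, 4958 and 5489 CPM), while Pi16 had 215, 211, 24 and 18 counts. Of 7 adipocyte markers 5 were listed, with 3, 2, 93 and 44 counts in sum, mostly Fabp4, and the defining Plin1 and Lep were at 0 in all 4 libraries. Of 5 macrophage markers 4 were listed, mostly Cd68 (42, 33, 124 and 69 counts), and the defining Ptprc was at 0. In the metabolite libraries Myog was thus lower, while the sum of the 9 muscle markers was higher. The fibroblast, adipocyte and macrophage sums were also higher. The part of these markers in the result was not tested.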

How the data were processed

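Poly(A) RNA from 12 cultures was sequenced by the authors on the DNBseq platform. Reads were filtered with SOAPnuke, mapped to GRCm38.p6 with HISAT and Bowtie2 and quantified with RSEM. The authors deposited expected counts per gene, not scaled between libraries, and FPKM, scaled to gene length and mapped reads. The 12 deposited TPM columns were left out, since 2 of the C2C12 columns carry 1 name. TPM was recomputed from FPKM, and expected counts were rounded. Whether counting used strand is not given in the sources used here; 14 of the 46 genes overlap another listed gene in the RefSeq annotation.

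Groups came from the labels. Pairs of libraries were compared with the Audic-Claverie test (two-sided, Benjamini-Hochberg adjustment, genes with a TPM of at least 1), called from a fold of 2 and an FDR of 0.05, with a pseudocount of 0.5. The 12 libraries were fitted in edgeR 4.0.16 with cell type, metabolite and their interaction (6 coefficients, 6 residual degrees of freedom), and with DESeq2 1.42.0 and limma 3.58.1 as alternatives, in R 4.3.3; Python 3.11.15, scipy 1.17.1 and pandas 2.3.3 were used otherwise. Both procedures were run on simulated data. For the read-level test the simulation held read sampling only. For the model it held no difference between the treatments set together, so it does not bear on the limit given next. No condition was repeated, so the spread in the model is that between treatments set together. Total counts of 15641434 to 19348338 per library limit the precision of low genes, and intervals cover counting error only.

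Values in every C2C12 library are given, in each role, for up to 3 members with the lowest and the 1 with the highest mean ratio of both metabolites to olanzapine, for every regulator, and for each member called in hepatocytes or adipocytes; other lists give up to 4 genes with the largest calcifediol ratio. The members and lists were chosen with earlier results of these data known. Alternatives were other scalings (TPM made from FPKM, Rplp0, TMM factors, size factors by median of ratios), a pseudocount of 5, other filters, a fold of 1.5, vehicle as reference and, in the model, other tools, no filter, an olanzapine term, only the libraries of a cell type, and leaving out each library.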

Additional observations from a re-analysis of the deposited data

Results flagged for a closer look

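In a test of the difference itself, the effect of the vitamin D metabolites on part of the replication genes differed between C2C12 cells and the primary cells. Each condition had 1 library, so the test took different treatments as repeats, and its p-values do not measure the spread between cultures. The counts below changed when single libraries were left out. The interaction in edgeR passed an FDR of 0.05 for 26 of 46 genes against hepatocytes and for 21 of 46 against adipocytes, each with the lower value in C2C12 cells, where 7.72% and 9.26% of all 13749 genes passed in either direction. The 3 genes with the smallest adjusted p were E2f2 (-1.54), Lig1 (-1.39) and Pold1 (-0.97) against hepatocytes, and E2f2 (-1.42), Ccne1 (-1.09) and Mcm7 (-0.97) against adipocytes, on the log2 scale. With 1 library for each condition, no sample could be set against others of its group.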

How the results depend on the processing

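In C2C12 cells the medians of the members stayed below 0 under every alternative run for the metabolites, from -1.27 to -1.15 with calcifediol and from -0.82 to -0.60 with calcitriol. Calls with calcifediol ranged from 27 to 39 of 46, and with calcitriol from 6 to 9, except 31 at a fold of 1.5. Shares over all genes were taken at the main settings only, so the counts in this paragraph have none beside them. A lower fold threshold raises the calls of all genes as well. In the model, the genes lower in C2C12 cells numbered 38 to 42 under other tools and terms (DESeq2 40, limma 39) and 34 to 43 when each library was left out, and hepatocytes and adipocytes kept 0. The interaction counts ranged from 11 to 37 against hepatocytes and from 7 to 32 against adipocytes when each library was left out. Calls in the primary cells rested on 1 gene each. For calcifediol in hepatocytes the 1 call became 0 with TMM factors, median-of-ratios size factors, a pseudocount of 5, a TPM of at least 10 or vehicle as reference, and olanzapine there went from 0 to 1 at a fold of 1.5. In adipocytes the olanzapine call became 0 with FPKM rescaled to TPM, a pseudocount of 5 or a TPM of at least 10, and 2 at a fold of 1.5. The calcifediol count there went from 0 to 2 when scaled to Rplp0, to 1 with no filter and to 1 at a fold of 1.5, and the calcitriol count from 1 to 2 when scaled to Rplp0 and to 0 at a TPM of at least 10 or with vehicle as reference. The cause was not tested. Scaling to Rplp0 moved the median of all genes to 0.35, -0.38 and -0.22 in the 3 adipocyte comparisons and to 0.19 for calcitriol in C2C12 cells. No paired analysis was possible because the labels give each condition 1 library and no shared replicate numbers. Members under a TPM of 1 were left out of the read-level test by that filter and stayed in the model.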
